A study of Mus musculus with 11 samples.

Results

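The aortas of wild-type C57BL6/J mice that received a high-fat diet and then L-NAME were compared, across all genes, with aortas of wild-type mice on chow. L-NAME is an inhibitor of nitric oxide synthases, the enzymes that make the vasodilator nitric oxide. The comparison takes 8 of the 11 RNA sequencing libraries of the series, 4 in the group WT_HFD_LNAME and 4 in the group WT_CD, chosen by the group names in the labels. WT_HFD_LNAME mice were wild type, were 6 to 7 weeks old when the diet with 45% of its calories from fat began, ate it for 15 weeks and were given L-NAME over a further 5 weeks. WT_CD mice were wild type and ate chow with 10% of its calories from fat for 15 weeks, and the labels give neither their age nor any L-NAME. By the labels the diet was meant to bring on obesity and high blood glucose, and the inhibitor high blood pressure. The diet, the inhibitor and the added weeks therefore cannot be told apart in this comparison. The remaining 3 libraries, from Mpst knockout mice on the same diet and inhibitor (KO_HFD_LNAME), entered the model to help estimate the spread between libraries, and also counted in the filter on low counts. With the 8 wild-type libraries alone 13445 genes passed that filter, and 34 of the genes called higher and 1 of those called lower below did not, Rit2, Tmem179, Scg2, Celf6, Elavl2, Vstm2l, Myh1 and Or2t48 among them. The tissue was the aorta from arch to abdomen with the surrounding fat removed, and the labels do not say that each library came from its own animal. All p-values here therefore speak only of how these samples vary, which may be technical.

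The aorta has an inner endothelium, a middle layer of smooth muscle and elastin, and an outer adventitia with fibroblasts, small vessels and nerves. Endothelial nitric oxide synthase, the product of Nos3, relaxes the smooth muscle through cyclic GMP, and blocking it raises blood pressure. The adventitia is reached by sympathetic fibres that release noradrenaline. The cell bodies of these neurons lie in ganglia along the vertebral column and in front of the abdominal aorta, and Schwann cells wrap their fibres.

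Total counts ran from 11562151 to 13757096 in WT_HFD_LNAME and from 8665968 to 13300136 in WT_CD, so that 3 counts stood for 0.205 to 0.282 CPM, the count scaled to library size, in WT_HFD_LNAME and for 0.210 to 0.358 CPM in WT_CD. The smooth muscle myosin gene Myh11 had 3480, 2481, 2332 and 3661 CPM in WT_HFD_LNAME 1 to 4, against 4983, 5563, 2592 and 4353 CPM in WT_CD 1 to 4, which fits the labelled tissue. Several libraries stood apart. The ribosomal RNA gene Rn45s took 1.25% to 2.98% of the counts in WT_HFD_LNAME, but 10.1% in WT_CD 1 and 17.4% in WT_CD 2, beside 2.58% and 0.855% in WT_CD 3 and 4. Heart muscle genes were high in WT_HFD_LNAME 3 and 4, with a summed level of the 12 tested genes of 16 listed of 1083 and 2804 CPM, against 55.2 to 193 CPM in WT_CD. Although the labels say that surrounding fat was removed, listed fat cell genes summed to 29790 CPM in WT_HFD_LNAME 3 and 26727 CPM in WT_CD 3. The other wild-type libraries had 1927 to 20414 CPM. Mitochondrial genes took 10.0% to 24.3% of the counts in WT_HFD_LNAME and 6.57% to 20.5% in WT_CD, most in WT_HFD_LNAME 3 and WT_CD 3. What part the libraries that stood apart have in the results below was not tested beyond refitting without them.

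Of 14303 tested genes, 200 were called higher and 12 lower in WT_HFD_LNAME, at a Benjamini-Hochberg adjusted p under 0.05 in edgeR's quasi-likelihood test. These are 1.40% and 0.0839% of the tested genes, and 1.48% in either direction. The genes called higher in WT_HFD_LNAME included 16 of 25 listed genes of sympathetic neurons, 4 of 13 of Schwann cells, 7 of 26 of endothelium, 3 of 14 of Notch signalling and 4 Hox genes. Lists of smooth muscle contraction, matrix, fat cells and vasoactive systems held 2 called genes or fewer each, and those of macrophages, lipid metabolism, oxidative stress and hydrogen sulfide metabolism held none. As a whole the tested genes were centred near 0, with log2 fold changes that had a median of -0.03 and lay above 0 in 46.1% of genes. The called changes were large, since 180 of the 200 higher genes and 5 of the 12 lower genes changed by 2-fold or more, and 70 rose 8-fold or more. The groups did not overlap in 199 of the 200 higher and in all 12 lower genes, while 5.31% of all tested genes were higher and 2.54% lower without overlap. Calling genes by a small p on these same libraries favours such separation, so it adds no support to the calls. At an unadjusted p under 0.05, 1306 genes were higher and 855 lower.

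The number of calls varied strongly with the libraries fitted, and the cause was not tested. Leaving out 1 library at a time gave 2 to 398 higher and 0 to 123 lower calls. The count fell to 2 higher and 0 lower without WT_CD 2, to 3 and 0 without WT_CD 4, to 10 and 0 without WT_HFD_LNAME 1 and to 21 and 0 without WT_HFD_LNAME 4. Without WT_CD 1 it was 58 and 10, without WT_CD 3 it was 398 and 123, without WT_HFD_LNAME 2 it was 97 and 1, without WT_HFD_LNAME 3 it was 297 and 9, and leaving out KO_HFD_LNAME 1, 2 or 3 gave 107 and 3, 62 and 1, and 168 and 6. In every fit that left out 1 library, 472 or more genes stayed at an unadjusted p under 0.05 in each direction. Where no gene differs, a share of 0.05 of the tested genes is expected at such a p over both directions together. The unadjusted counts were not compared with that share. Without both WT_CD 1 and WT_CD 2 edgeR called 0 genes in either direction (smallest adjusted p = 0.0880, with 1048 higher and 579 lower at an unadjusted p under 0.05). All 200 genes kept a positive fold change there, with a median of 1.90 on the log2 scale against 2.25 with all libraries. DESeq2 on the same remaining libraries called 326 higher and 68 lower, with 177 of the 200 among them, and limma voom called 0 and 0 (480 higher and 422 lower at an unadjusted p under 0.05). With all libraries DESeq2 called 731 genes higher (5.12%) and 159 lower (1.11%), and these included all 200 and all 12.

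**Figure D1:**
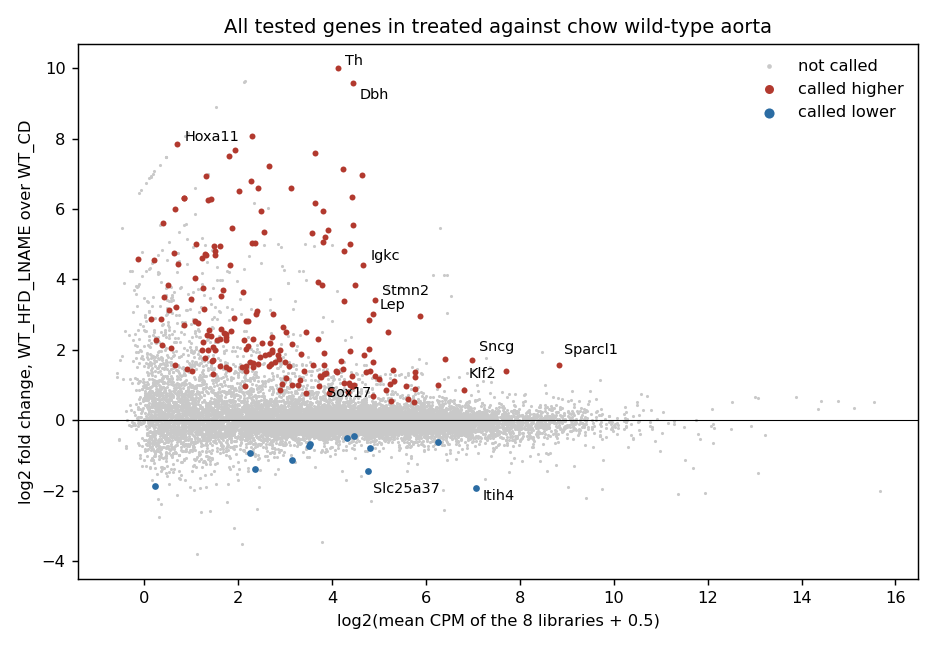
Log2 fold change of WT_HFD_LNAME over WT_CD (vertical axis) against the log2 of the mean CPM of the 8 libraries plus 0.5 (horizontal axis), 1 point for each of the 14303 tested genes. The 200 genes called higher (red) outnumber the 12 called lower (blue), and those with the largest changes lie at low to middle levels.

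The 200 higher genes fell into different patterns over the 4 treated libraries. In 82 of them the WT_HFD_LNAME libraries lay within 2-fold of each other, where the log2 fold changes ranged from 0.52 to 4.57 around a median of 1.40. In 60 others the WT_HFD_LNAME libraries were over 4-fold apart, and in 52 of those WT_HFD_LNAME 3 was the lowest and in 57 WT_HFD_LNAME 4 the highest. Over all 200 genes WT_HFD_LNAME 3 was the lowest in 95 and WT_HFD_LNAME 4 the highest in 127.

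The even pattern held most of the genes with the smallest p-values. Sox17, a transcription factor of arterial endothelium (Entrez 20671, chromosome 1, 4490928 to 4497426 in GRCm38.p6), had 24.1, 20.7, 29.2 and 21.6 CPM in WT_HFD_LNAME 1 to 4, against 9.07, 8.2, 10.3 and 8.75 CPM in WT_CD 1 to 4. The lowest treated library was above the highest chow library, and the mean was 23.9 ± 3.83 CPM in WT_HFD_LNAME and 9.08 ± 0.888 CPM in WT_CD (SD, n = 4 each). Its log2 fold change was 1.40 (SE 0.14, adjusted p = 0.00948), with 1.29 to 1.46 over the fits that left out 1 library. Lhfpl2, a membrane protein of the tetraspan superfamily (Entrez 218454, chromosome 13, 94057152 to 94195410 in GRCm38.p6), had 9.48, 10.9, 10.5 and 10.8 CPM in WT_HFD_LNAME, against 3.1, 2.0, 3.56 and 3.78 CPM in WT_CD. Its treated libraries were nearly level while the chow libraries lay well below them, and its log2 fold change was 1.74 (SE 0.20, adjusted p = 0.0117). Sox17 and Lhfpl2 were the only 2 genes called higher in all 11 fits that left out a library.

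She, an adaptor protein with an SH2 domain, had 16.8, 14.8, 22.5 and 15.1 CPM in WT_HFD_LNAME and 5.01, 5.1, 7.49 and 5.74 CPM in WT_CD, a log2 fold change of 1.56 (SE 0.18, adjusted p = 0.0117). Rasgrf2, an exchange factor that activates Ras, had 8.26, 11.6, 14.2 and 11.4 CPM in WT_HFD_LNAME and 3.46, 3.8, 3.37 and 3.78 CPM in WT_CD, a log2 fold change of 1.65 (SE 0.18, adjusted p = 0.0117). Neither gene overlapped between the groups, and each was called in 9 of the 11 fits. Sncg, gamma-synuclein, had 227, 158, 179 and 202 CPM in WT_HFD_LNAME and 52.5, 48.1, 59.8 and 74.4 CPM in WT_CD, a log2 fold change of 1.71 (SE 0.21, adjusted p = 0.0132), and was called in 10 of the 11 fits. Il13ra1, a receptor subunit for the cytokines interleukin-4 and interleukin-13, differed by less but with little spread, at 25.4, 26.3, 24.2 and 24.6 CPM in WT_HFD_LNAME and 15.4, 14.6, 12.1 and 15.7 CPM in WT_CD, a log2 fold change of 0.80 (SE 0.11, adjusted p = 0.016). Hcn2, a cation channel opened by hyperpolarization, had 5.35, 9.5, 11.1 and 8.35 CPM in WT_HFD_LNAME and 1.55, 1.3, 2.34 and 2.24 CPM in WT_CD, a log2 fold change of 2.19 (SE 0.30, adjusted p = 0.016). For both, every treated library was above the highest chow library.

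The membrane glycoproteins Gpm6a and Gpm6b, both of the proteolipid family, rose together. Gpm6a had 15.5, 23, 24.2 and 19.9 CPM in WT_HFD_LNAME, against 4.65, 2.6, 5.43 and 3.99 CPM in WT_CD, a log2 fold change of 2.31 (SE 0.31, adjusted p = 0.016). Gpm6b, which overlaps Ofd1, had 36.1, 28.8, 19.9 and 44.3 CPM in WT_HFD_LNAME, against 9.66, 5.8, 10.1 and 7.77 CPM in WT_CD, a log2 fold change of 1.96 (SE 0.25, adjusted p = 0.016). Gpm6a was near level over the treated libraries, whereas Gpm6b was highest in WT_HFD_LNAME 4 and lowest in WT_HFD_LNAME 3.

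Endothelial genes were higher as a group. All 26 listed endothelial genes were tested and had a positive log2 fold change, 7 were called higher and none lower, and their median was 1.25, beside -0.03 over all tested genes. In 21 of the 26 the treated libraries were higher without overlap, beside 5.31% of all tested genes. The summed level of the list was 1572, 1366, 2235 and 2119 CPM in WT_HFD_LNAME and 532, 858, 1041 and 919 CPM in WT_CD. Every treated library was above every chow library, with WT_CD 1 the lowest. Without both WT_CD 1 and WT_CD 2 the median was 0.84. In bulk tissue more cells of a type and more RNA per cell cannot be told apart.

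The 7 called members were Sox17, Clec14a, Icam2, Sox18, Emcn, Plvap and Mmrn2. Clec14a, a C-type lectin of endothelium, had 22.3, 29.4, 40.2 and 26.8 CPM in WT_HFD_LNAME and 11.6, 11.2, 13.1 and 13.4 CPM in WT_CD, a log2 fold change of 1.26 (SE 0.21, adjusted p = 0.0247). Icam2, an adhesion molecule that endothelium makes without stimulation, had 23.6, 22.5, 34 and 27.8 CPM in WT_HFD_LNAME and 9.19, 13.6, 18.4 and 12.7 CPM in WT_CD, a log2 fold change of 1.0 (SE 0.20, adjusted p = 0.0402). Both were highest in WT_HFD_LNAME 3 among the treated libraries. Plvap, which forms the diaphragms of fenestrae and caveolae and overlaps Gtpbp3, had 103, 81.9, 143 and 187 CPM in WT_HFD_LNAME and 29.9, 28.7, 56.6 and 39.97 CPM in WT_CD, a log2 fold change of 1.73 (SE 0.37, adjusted p = 0.0498). Emcn, an endothelial sialomucin, had 32.9, 34.2, 55.2 and 51.6 CPM in WT_HFD_LNAME and 6.08, 4.9, 21.2 and 10.4 CPM in WT_CD, a log2 fold change of 2.02 (SE 0.43, adjusted p = 0.0473). Sox18, a relative of Sox17, had a log2 fold change of 1.43 (SE 0.29, adjusted p = 0.0453), and Mmrn2, a matrix protein that binds Clec14a, one of 0.98 (SE 0.21, adjusted p = 0.0498).

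The textbook markers of endothelium did not pass the test one by one. Cdh5, vascular endothelial cadherin, had 55, 54.8, 99.5 and 66.1 CPM in WT_HFD_LNAME and 17.3, 19.9, 52.5 and 24.4 CPM in WT_CD, a log2 fold change of 1.27 (SE 0.35, adjusted p = 0.0993). Pecam1 had a log2 fold change of 0.75 (SE 0.29, adjusted p = 0.248) and Vwf, von Willebrand factor, one of 1.52 (SE 0.34, adjusted p = 0.054). For Cdh5 and Vwf the groups did not overlap, while Pecam1 was lower in WT_HFD_LNAME 2 than in WT_CD 2 and WT_CD 4. Erg had the smallest difference in the list, 0.12 (SE 0.17, adjusted p = 0.795).

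**Figure D2:**
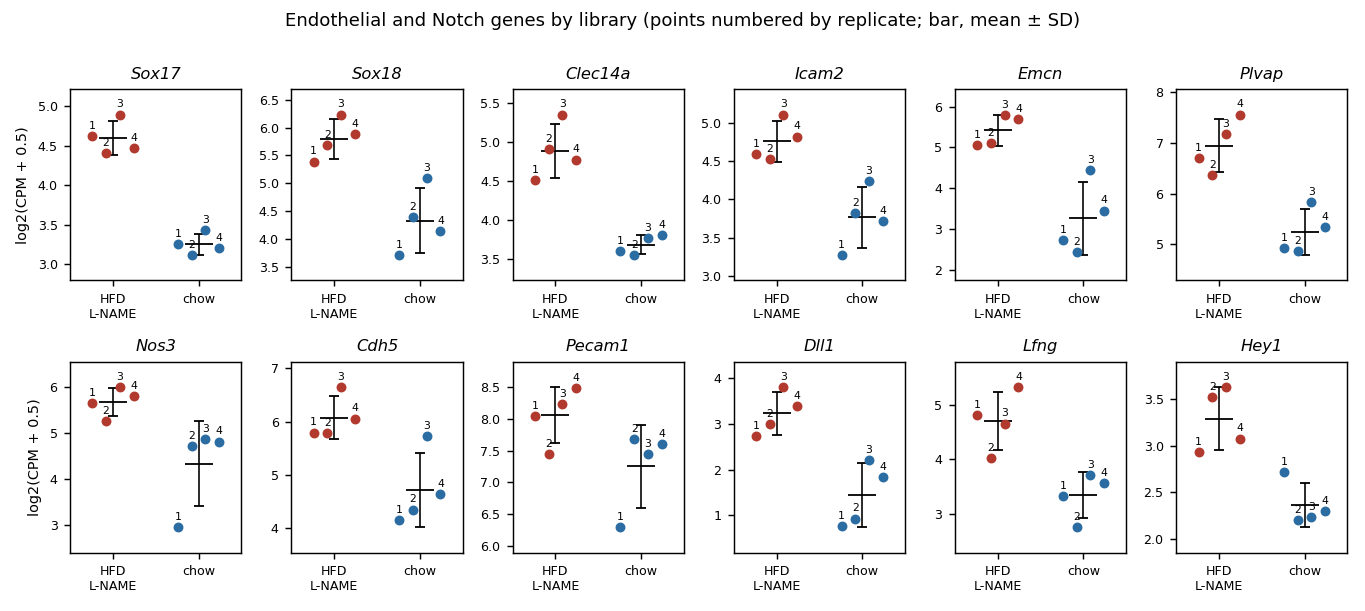
Log2(CPM + 0.5) of 9 endothelial and 3 Notch pathway genes (vertical axes) in the 4 WT_HFD_LNAME libraries (red, left) and the 4 WT_CD libraries (blue, right), with points numbered by replicate and the bar giving mean ± SD. The groups are apart for Sox17, Clec14a and Plvap, and WT_CD 1 lies far below the other chow libraries for Nos3 and Pecam1.

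Further genes of endothelium and the vessel wall outside the list were among the 200. Klf2, a transcription factor that shear stress induces in endothelium, had 140, 123, 164 and 144 CPM in WT_HFD_LNAME and 90.9, 68.3, 74.5 and 84.6 CPM in WT_CD, a log2 fold change of 0.84 (SE 0.15, adjusted p = 0.0286). Podxl, a sialomucin of the endothelial surface, had 69.2, 51.9, 107 and 82.5 CPM in WT_HFD_LNAME and 27.1, 22.7, 39.9 and 31.6 CPM in WT_CD, a log2 fold change of 1.36 (SE 0.25, adjusted p = 0.0336). Sparcl1, a secreted matricellular protein, had 821, 471, 502 and 935 CPM in WT_HFD_LNAME and 134, 256, 266 and 259 CPM in WT_CD, a log2 fold change of 1.58 (SE 0.29, adjusted p = 0.0327). None of these overlapped between the groups, and Sparcl1 was lowest in WT_CD 1. Chosen after their values were seen, the efflux pumps Abcg2 and Abcb1a rose by 1.40 and 1.54 on the log2 scale, and Cd93, a C-type lectin receptor, by 1.17. Nherf2, a scaffold protein of membrane transporters, rose by 1.0.

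A transporter and a receptor of sphingosine 1-phosphate, a lipid mediator that acts on vessels, were also chosen after their values were seen, and no list covers the other genes of this lipid. Spns2, its exporter in endothelium, had 18.4, 17.7, 27.1 and 23.9 CPM in WT_HFD_LNAME and 3.22, 4.0, 9.74 and 6.02 CPM in WT_CD, a log2 fold change of 1.91 (SE 0.31, adjusted p = 0.0247). S1pr3, a receptor, had 43.7, 13.1, 20.6 and 58 CPM in WT_HFD_LNAME and 2.62, 1.9, 5.15 and 3.29 CPM in WT_CD, a log2 fold change of 3.37 (SE 0.51, adjusted p = 0.0232). The treated libraries were closer together for Spns2, while S1pr3 was lower in WT_HFD_LNAME 2 and 3 than in 1 and 4.

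The growth factor genes Pdgfb, Pdgfc and Vegfc also rose. Pdgfb, which recruits mural cells, had 23.8, 25.3, 37.7 and 28.8 CPM in WT_HFD_LNAME and 14.9, 12, 17.7 and 13.6 CPM in WT_CD. Vegfc, which drives growth of lymphatic vessels, had 11, 10.2, 12.6 and 11 CPM in WT_HFD_LNAME and 7.4, 3.7, 5.43 and 5.81 CPM in WT_CD. Neither overlapped between the groups, and the log2 fold changes were 0.99 for Pdgfb, 0.70 for Pdgfc and 1.0 for Vegfc. Igf2, an imprinted growth factor that overlaps Igf2os and Mir483, had 91.2, 48.2, 84.6 and 79.9 CPM in WT_HFD_LNAME and 44.4, 20.2, 34.6 and 30.03 CPM in WT_CD, a log2 fold change of 1.23 (SE 0.24, adjusted p = 0.0402).

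In the lymphatic list 1 of 5 tested genes was called. Reln, which encodes reelin and is made by lymphatic endothelium as well as neurons, had 8.5, 8.09, 8.34 and 14 CPM in WT_HFD_LNAME and 2.15, 1.2, 3.84 and 2.52 CPM in WT_CD, a log2 fold change of 2.0 (SE 0.32, adjusted p = 0.0247). The list had a median of 0.77, with 0.49 without WT_CD 2.

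Of the 14 tested Notch pathway genes, 3 were called higher and none lower, with a median of 0.86. The summed level of the list was 427, 395, 429 and 487 CPM in WT_HFD_LNAME and 653, 442, 306 and 340 CPM in WT_CD. The sums overlapped, with WT_CD 1 the highest library, and Heyl, a target gene of high level, had a log2 fold change of -0.96 (SE 0.36, adjusted p = 0.221). Dll1, a ligand, had 6.15, 7.43, 13.4 and 9.997 CPM in WT_HFD_LNAME and 1.19, 1.4, 4.12 and 3.08 CPM in WT_CD, a log2 fold change of 1.89 (SE 0.38, adjusted p = 0.0407). Lfng, which adds sugar to Notch receptors, had 27.5, 15.8, 24.8 and 39.6 CPM in WT_HFD_LNAME and 9.54, 6.2, 12.5 and 11.3 CPM in WT_CD, a log2 fold change of 1.44 (SE 0.30, adjusted p = 0.047). Hey1, a target gene, had 7.13, 11, 11.9 and 7.94 CPM in WT_HFD_LNAME and 6.08, 4.1, 4.21 and 4.41 CPM in WT_CD, a log2 fold change of 1.02 (SE 0.22, adjusted p = 0.0498). All 3 were separated between the groups, with WT_CD 1 the highest chow library for Hey1. The receptor Notch4 and the ligand Dll4 had log2 fold changes of 1.22 (SE 0.28, adjusted p = 0.0539) and 1.59 (SE 0.45, adjusted p = 0.109), and were not called.

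Genes that act on vessel tone mostly stayed below the threshold. Nos3, the target of the inhibitor in endothelium (Entrez 18127, chromosome 5, 24364816 to 24384474 in GRCm38.p6), overlaps Atg9b and had 49.6, 38, 63.4 and 55.6 CPM in WT_HFD_LNAME, against 7.16, 25.8, 28.7 and 27.6 CPM in WT_CD. All treated libraries were above all chow libraries, but WT_CD 1 lay far below the other chow libraries and the log2 fold change of 1.20 (SE 0.34, adjusted p = 0.11) was not called. Of 20 tested genes of nitric oxide and cyclic GMP signalling 1 was called. This was Gch1, which makes the cofactor of nitric oxide synthases as well as of tyrosine hydroxylase, with 10.1, 9.41, 6.32 and 16.2 CPM in WT_HFD_LNAME and 1.67, 2.8, 4.4 and 2.8 CPM in WT_CD, a log2 fold change of 1.84 (SE 0.35, adjusted p = 0.0378). Its treated libraries ran in the same order as the sympathetic genes described below, lowest in WT_HFD_LNAME 3 and highest in WT_HFD_LNAME 4. The median of the list was 0.09, with -0.01 without WT_CD 2. Prkg2, a cyclic GMP-dependent kinase outside the list, rose by 3.12 on the log2 scale, with 11.3, 5.74, 4.72 and 12.5 CPM in WT_HFD_LNAME and 0.835, 0.40, 1.59 and 1.05 CPM in WT_CD.

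The prostanoid, adrenergic receptor and ion channel lists held 1 called gene each. Ptgs1, cyclooxygenase 1, had 25, 25.6, 26.4 and 34.3 CPM in WT_HFD_LNAME and 12.4, 9.5, 16.8 and 17.6 CPM in WT_CD, a log2 fold change of 0.98 (SE 0.19, adjusted p = 0.0387). Adra2a, an alpha-2 adrenergic receptor, had 4.94, 5.65, 7.42 and 8.01 CPM in WT_HFD_LNAME and 1.19, 2.4, 1.69 and 2.94 CPM in WT_CD, a log2 fold change of 1.64 (SE 0.32, adjusted p = 0.0387). Kcnn4, a calcium-activated potassium channel of endothelium, had 7.94, 5.17, 5.98 and 7.6 CPM in WT_HFD_LNAME and 1.67, 2.9, 2.62 and 2.1 CPM in WT_CD, a log2 fold change of 1.52 (SE 0.23, adjusted p = 0.0236). None of the 3 overlapped between the groups. The lists had 16, 9 and 24 tested genes and medians of 0.29, 0.85 and 0.19. Without both WT_CD 1 and WT_CD 2 these medians were -0.05, 0.43 and 0.60. Without WT_HFD_LNAME 3 they were 0.04, 0.50 and 0.33, and without WT_CD 3 they were 0.53, 1.35 and 0.17.

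The angiotensin and endothelin lists held no called gene among 10 and 6 tested. Agtr1a, the main angiotensin II receptor of rodent vessels, had 6.07, 7.62, 6.15 and 11.6 CPM in WT_HFD_LNAME and 2.03, 0.60, 3.75 and 1.82 CPM in WT_CD, and its log2 fold change of 1.94 (SE 0.42, adjusted p = 0.050) fell just short of the threshold. Edn1, which encodes the constrictor endothelin-1, had a log2 fold change of 0.48 (SE 0.18, adjusted p = 0.23). The medians of the lists were 0.34 and 0.54, and that of the angiotensin list was 0.11 without WT_HFD_LNAME 2, 0.18 without WT_CD 4, 0.21 without WT_CD 2 and 0.52 without WT_CD 3.

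Of 23 smooth muscle contraction genes 2 were called, and the median was -0.18, with -0.04 without WT_HFD_LNAME 3 and -0.39 without WT_CD 3. The called members were Sncg, given above, and Pln, phospholamban, which is made in heart as well as in smooth muscle and overlaps Cep85l. Pln had 18, 16, 54.6 and 102 CPM in WT_HFD_LNAME and 9.9, 4.3, 7.4 and 4.97 CPM in WT_CD, a log2 fold change of 2.86 (SE 0.57, adjusted p = 0.0403). It was highest in the WT_HFD_LNAME libraries 3 and 4, which also had the highest heart muscle levels. The median of the list was -0.39 to -0.04 with 1 library left out and 0.04 without both WT_CD 1 and WT_CD 2.

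Among 21 tested genes of modulated or bone-like smooth muscle 3 were called higher, and the median was 0.45. Spp1, osteopontin, had 17.7, 14.8, 4.8 and 13 CPM in WT_HFD_LNAME and 2.98, 1.4, 2.53 and 1.19 CPM in WT_CD, a log2 fold change of 2.65 (SE 0.47, adjusted p = 0.0302). Cytl1, a small secreted protein of cartilage and vessels, had 311, 270, 275 and 355 CPM in WT_HFD_LNAME and 56.6, 148, 111 and 149 CPM in WT_CD, a log2 fold change of 1.38 (SE 0.27, adjusted p = 0.0387). Bmp2, a bone morphogenetic protein and also the 1 called gene of 21 in the TGF-beta and BMP list, had 12.4, 15.7, 11.5 and 12.9 CPM in WT_HFD_LNAME and 8.95, 7.5, 6.18 and 7.91 CPM in WT_CD, a log2 fold change of 0.78 (SE 0.16, adjusted p = 0.0473). All 3 were apart between the groups, with Spp1 lowest in WT_HFD_LNAME 3. Fam20c, a kinase of secreted bone and tooth proteins outside the list, rose by 0.55 on the log2 scale. The median of the TGF-beta and BMP list was 0.02, with -0.10 to 0.05 when 1 library was left out.

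In the matrix and fibrosis list 2 of 30 genes were called and the median was -0.09. Col8a1, a short-chain collagen that vascular cells make, had 56.7, 36.3, 45.8 and 35 CPM in WT_HFD_LNAME and 17.8, 13.5, 9.64 and 14.2 CPM in WT_CD, a log2 fold change of 1.66 (SE 0.21, adjusted p = 0.016). Thbs1, thrombospondin-1, had 62.6, 26.9, 30.8 and 38.4 CPM in WT_HFD_LNAME and 6.2, 17.2, 8.33 and 12 CPM in WT_CD, a log2 fold change of 1.85 (SE 0.34, adjusted p = 0.0327). Both rose while the bulk of the list did not, and Eln, elastin, had a log2 fold change of -0.88 (SE 0.38, adjusted p = 0.311). The median was -0.25 without WT_CD 3 and turned to 0.02 without WT_CD 1, to 0.17 without both WT_CD 1 and WT_CD 2 and to 0.01 without both WT_HFD_LNAME 3 and 4. Matrix proteases held no called gene of 17, with a median of 0.00, and Plau, urokinase, came nearest at 0.61 (SE 0.14, adjusted p = 0.0529).

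Genes of sympathetic neurons were among the largest changes. All 25 listed genes were tested and had positive fold changes, 16 were called higher and none lower, and the median log2 fold change was 5.32, beside -0.03 over all tested genes. In 18 of the 25 the treated libraries were higher without overlap, beside 5.31% of all tested genes. The summed level was 664, 565, 125 and 1245 CPM in WT_HFD_LNAME and 75.2, 134, 86.4 and 147 CPM in WT_CD. WT_HFD_LNAME 3 was far below the other treated libraries and within the chow range by this sum, in which Uchl1, with 166, 148, 55 and 243 CPM in WT_HFD_LNAME and 61.6, 126, 65 and 122 CPM in WT_CD, weighs most in the chow libraries. Chrna3, a nicotinic receptor subunit, had no chow count, and at its lower bound of at least 121-fold against 3 counts over the group it left the median at 5.32. The median was 4.67 to 5.76 with 1 library left out and 4.84 without both WT_CD 1 and WT_CD 2.

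Th, Dbh, Scg2 and Npy, which the following results turn on, are shown with the 130 bases before their transcription starts, from RefSeq in GRCm38.p6, 5′ to 3′ on the gene's strand. Capitals mark the octamer TGACGTCA, the cyclic AMP response element, which reads the same on both strands.
Th, chr7:142899996-142900125, minus strand: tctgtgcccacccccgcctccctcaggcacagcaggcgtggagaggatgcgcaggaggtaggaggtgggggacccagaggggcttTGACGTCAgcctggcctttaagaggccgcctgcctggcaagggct
Scg2, chr1:79440027-79440156, minus strand: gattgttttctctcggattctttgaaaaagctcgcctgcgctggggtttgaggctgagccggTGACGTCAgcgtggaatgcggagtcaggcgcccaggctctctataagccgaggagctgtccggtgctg
Dbh, chr2:27165377-27165506, plus strand: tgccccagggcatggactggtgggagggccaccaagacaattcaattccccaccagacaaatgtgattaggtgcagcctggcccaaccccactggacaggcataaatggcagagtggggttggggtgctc
Npy, chr6:49822580-49822709, plus strand: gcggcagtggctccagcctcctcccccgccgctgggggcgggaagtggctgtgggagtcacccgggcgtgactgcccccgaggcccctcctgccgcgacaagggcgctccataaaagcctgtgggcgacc
The octamer began 45 bases before the start in Th and 68 bases before it in Scg2, and was not in these windows of Dbh and Npy. In windows from 250 bases before to 50 bases after the start, 4 of the 18 sympathetic genes with a window held it (Th, Scg2, Chgb and Slc18a2), as did 10 of the 145 genes called higher with a window and 2.03% of 27025 genes. A match is a description of these letters and says nothing about whether a factor binds.

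Of the genes of noradrenaline synthesis, Th and Dbh had the highest fold changes among all named genes. Th, tyrosine hydroxylase, the rate-limiting enzyme of catecholamine synthesis, had 32.5, 26, 3.2 and 73.6 CPM in WT_HFD_LNAME 1 to 4, against 0.119, 0, 0 and 0 CPM in WT_CD 1 to 4. Over the groups these were 1790 counts in WT_HFD_LNAME and 1 count in WT_CD, a ratio of 1569 with an exact 95% interval of 281 to 62009 that covers counting error only, and the log2 fold change was 10.0 (SE 1.56, adjusted p = 0.0236). Dbh, dopamine beta-hydroxylase (Entrez 13166, chromosome 2, 27165507 to 27183204 in GRCm38.p6), had 40.7, 36.2, 2.78 and 90.5 CPM in WT_HFD_LNAME, against 0.119, 0, 0 and 0.070 CPM in WT_CD, with 2242 counts in WT_HFD_LNAME and 2 counts in WT_CD (ratio 983, interval 272 to 8119). Both were at 2 counts or fewer over all chow libraries and far lower in WT_HFD_LNAME 3 than in the other treated libraries. The log2 fold change of Dbh was 9.57 (SE 1.56, adjusted p = 0.0247). Ddc, which makes dopamine from its precursor, had a log2 fold change of 5.41 (SE 1.12, adjusted p = 0.0456).

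Transport, storage and co-release genes rose as well. Slc6a2, the noradrenaline transporter, had 35.6, 35.2, 4.47 and 90.6 CPM in WT_HFD_LNAME and 0, 0.50, 0.936 and 0.49 CPM in WT_CD, a log2 fold change of 6.34 (SE 1.06, adjusted p = 0.0269). Slc18a2, the vesicular monoamine transporter, had 21.5, 23.3, 2.61 and 41 CPM in WT_HFD_LNAME and 0.358, 0.20, 0.843 and 0.70 CPM in WT_CD, a log2 fold change of 5.32 (SE 0.86, adjusted p = 0.0247). Npy, the co-transmitter neuropeptide Y, had 43.6, 40.1, 4.72 and 105 CPM in WT_HFD_LNAME and 0.119, 0, 0.0936 and 1.05 CPM in WT_CD, a log2 fold change of 6.97 (SE 1.22, adjusted p = 0.0286). In each of them WT_HFD_LNAME 4 was the highest and WT_HFD_LNAME 3 the lowest treated library, still above every chow library. Scg2, a protein of secretory granules, had 13.3, 9.69, 0.59 and 22.3 CPM in WT_HFD_LNAME and 0, 0, 0 and 0.21 CPM in WT_CD, with 600 counts in WT_HFD_LNAME and 3 in WT_CD (ratio 175, interval 59.7 to 853), and a log2 fold change of 7.21 (SE 1.43, adjusted p = 0.0403). Chgb, another granule protein, had 8.02, 5.46, 0.421 and 18.3 CPM in WT_HFD_LNAME and 0.119, 0.20, 0.0936 and 0.70 CPM in WT_CD and was not called, at 4.67 (SE 1.07, adjusted p = 0.0565), with WT_HFD_LNAME 3 below WT_CD 4.

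Receptors and cell identity genes followed. Ngfr, a receptor for nerve growth factor, outside the list and chosen after its values were seen, had 25.9, 21, 2.78 and 45 CPM in WT_HFD_LNAME and 0.119, 0.20, 0.562 and 0.35 CPM in WT_CD, a log2 fold change of 6.17 (SE 1.0, adjusted p = 0.0247). Phox2a, a transcription factor of autonomic neurons, had 229 counts in WT_HFD_LNAME and 2 in WT_CD (ratio 100.4, interval 27.5 to 834, adjusted p = 0.0345). For Prph, the intermediate filament peripherin, the log2 fold change was 5.54 (SE 1.02, adjusted p = 0.0331). All were lowest in WT_HFD_LNAME 3 among the treated libraries. Stmn2, a microtubule regulator of growing axons (Entrez 20257, chromosome 3, 8509527 to 8561604 in GRCm38.p6), had the smallest p of the list, with 60.3, 44.7, 23.7 and 89.6 CPM in WT_HFD_LNAME and 4.18, 3.4, 6.65 and 6.23 CPM in WT_CD, a log2 fold change of 3.40 (SE 0.47, adjusted p = 0.016). Its treated libraries were closer together than those of Th or Dbh. The 9 members that were not called included Uchl1, Hand2, Scg3, Snap25, Gap43 and Chgb.

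Other genes that neurons express and that no list held were among the 15 largest increases. They were Rit2, a neuronal small GTPase, Htr3a, a serotonin-gated channel, Pcsk1n, an inhibitor of prohormone cleavage that overlaps Eras, and the RNA-binding proteins Celf6 and Elavl2, with Tmem179, Spock3, Sult4a1 and Vstm2l. Rit2 had 455 counts in WT_HFD_LNAME and 1 in WT_CD (ratio 399, interval 71.2 to 15788), and Vstm2l had 372 counts in WT_HFD_LNAME and 3 in WT_CD (ratio 109, interval 36.9 to 529). The fitted log2 fold changes of the 9 genes ran from 6.51 for Vstm2l to 8.06 for Rit2, with adjusted p from 0.0236 for Spock3 to 0.0473 for Vstm2l. Htr3a had 26.3, 19.9, 1.1 and 48.4 CPM in WT_HFD_LNAME and 0, 0.10, 0.0936 and 0.21 CPM in WT_CD, and Spock3 9.88, 4.99, 1.26 and 7.81 CPM in WT_HFD_LNAME and 0, 0, 0.0936 and 0 CPM in WT_CD. WT_HFD_LNAME 3 was the lowest treated library for all 9.

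Schwann cell genes were higher with a smaller spread over the treated libraries. Of 13 tested, 4 were called higher and none lower, and the median log2 fold change was 2.2, with 1.90 without both WT_CD 1 and WT_CD 2. Mbp, myelin basic protein, had 57.4, 38.5, 34.2 and 115 CPM in WT_HFD_LNAME and 5.37, 4.7, 19.9 and 13 CPM in WT_CD, a log2 fold change of 2.50 (SE 0.53, adjusted p = 0.0475). It was highest in WT_HFD_LNAME 4, and no treated library overlapped a chow library. Cdh19, a cadherin of the Schwann lineage, had 4.86, 2.16, 3.54 and 3.08 CPM in WT_HFD_LNAME and 0.358, 0.40, 0.936 and 0.77 CPM in WT_CD, a log2 fold change of 2.42 (SE 0.42, adjusted p = 0.0286). Both were less uneven over the treated libraries than most of the neuronal genes. Sox10, the transcription factor of the lineage, had a log2 fold change of 2.35 (SE 0.52, adjusted p = 0.0526) and was not called, and Pmp22 was at -0.18 (SE 0.18, adjusted p = 0.703).

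**Figure D3:**
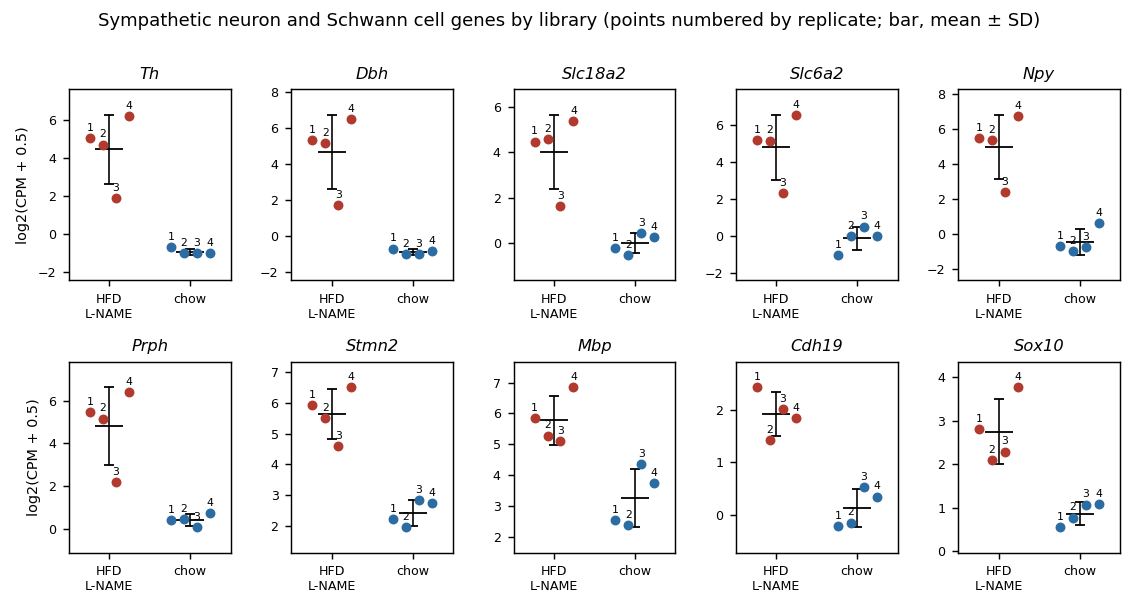
Log2(CPM + 0.5) of 7 sympathetic neuron genes (Th to Stmn2) and 3 Schwann cell genes (Mbp to Sox10) in the 4 WT_HFD_LNAME libraries (red, left) and the 4 WT_CD libraries (blue, right), with points numbered by replicate and the bar giving mean ± SD. For the neuron genes WT_HFD_LNAME 3 is the lowest treated library and WT_HFD_LNAME 4 the highest, and all treated libraries lie above all chow libraries.

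Hox genes record position along the body axis, and the 4 called ones all had paralogue numbers of 8 or more. Genes of paralogues 1 to 6 pattern the front of the trunk and those of paralogues 8 to 13 the rear. In paralogues 8 to 13, 10 of 19 genes passed the filter on low counts and 4 were called higher. The 9 others were not tested, and Hoxa11, with no chow count, passed only through libraries where it was high, so the tally of the tested rear genes (9 with a positive fold change, median 1.41) is partly set by the filter. In paralogues 1 to 6, 15 of 18 genes were tested, none was called in either direction, 6 had a positive fold change and the median was -0.37. The 2 tested genes of paralogue 7 had a median of -0.42. When 1 library was left out the rear median stayed between 1.10 and 1.64 and the front median between -0.51 and -0.11. Without both WT_CD 1 and WT_CD 2 the medians were 1.17 for the rear and 0.01 for the front genes. The difference between front and rear genes was not tested.

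Hoxa11, which overlaps Hoxa11os, had 3.4, 1.88, 1.35 and 2.4 CPM in WT_HFD_LNAME and no count in any chow library. Against a floor of 3 counts over the group, 113 counts in WT_HFD_LNAME made it at least 33.0-fold higher (adjusted p = 0.0387). Hoxc10 had 8.75, 4.7, 8.93 and 5.75 CPM in WT_HFD_LNAME and 0.597, 0, 0.655 and 0.91 CPM in WT_CD, a log2 fold change of 3.63 (SE 0.65, adjusted p = 0.0306). Hoxa10 had 8.99, 4.14, 7.42 and 7.26 CPM in WT_HFD_LNAME and 1.43, 0.20, 0.655 and 1.61 CPM in WT_CD, a log2 fold change of 2.80 (SE 0.56, adjusted p = 0.0411). Hoxd8 had 3.97, 1.98, 3.96 and 4.79 CPM in WT_HFD_LNAME and 0.239, 0.30, 1.22 and 0.91 CPM in WT_CD, a log2 fold change of 2.40 (SE 0.46, adjusted p = 0.0372). In these 4 genes all treated libraries were above all chow libraries, and WT_HFD_LNAME 3 was the lowest treated library for Hoxa11 but not for the other 3. The summed level of the rear genes was 67.0, 55.8, 83.9 and 66.0 CPM in WT_HFD_LNAME and 64.1, 27.8, 36.0 and 46.8 CPM in WT_CD, so that the sums overlapped although the 4 called genes did not. The front gene Hoxb4 had 29.2, 21.9, 25.7 and 21.9 CPM in WT_HFD_LNAME and 93.8, 46, 26.9 and 38.1 CPM in WT_CD, a log2 fold change of -1.05 (SE 0.32, adjusted p = 0.136), with WT_CD 1 the highest library. Of the 15 tested front genes 6 had a positive log2 fold change, among them Hoxd3 at 1.74, Hoxd4 at 1.37 and Hoxc5 at 1.14. The rear gene Hoxb8 was at -0.62. All tested Hoxc and Hoxd genes had positive fold changes, and all tested Hoxb genes but Hoxb9 negative ones. The part of the cluster in the split between front and rear genes was not tested.

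**Figure D4:**
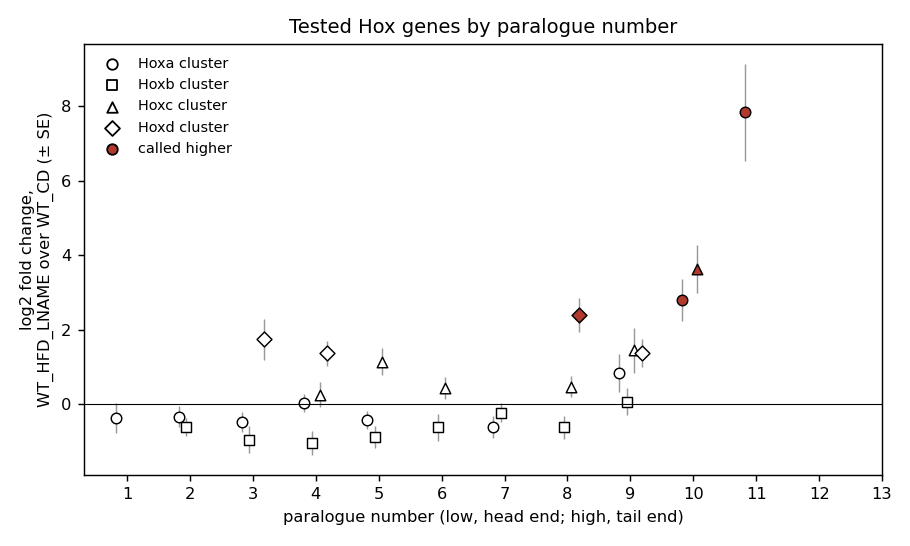
Log2 fold change of WT_HFD_LNAME over WT_CD (vertical axis, bars ± SE) of the 27 tested Hox genes by paralogue number (horizontal axis), with symbols for the 4 clusters and red for called genes. The 4 called genes, Hoxd8, Hoxa10, Hoxc10 and Hoxa11, are all at paralogue 8 or above, while most genes of paralogues 1 to 6 lie near or below 0. Hoxc5, Hoxd3 and Hoxd4 are genes of paralogues 1 to 6 that lie well above 0.

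Genes of tissues next to the aorta varied strongly between libraries. Of 12 tested heart muscle genes none was called, with a median of 3.64 (log2) that became -0.15 without both WT_HFD_LNAME 3 and 4 and 2.30 without WT_HFD_LNAME 4 alone. Tnnt2, cardiac troponin T, had 19.4, 56.2, 160 and 389 CPM in WT_HFD_LNAME and 10.3, 20.1, 25.9 and 18.6 CPM in WT_CD, a log2 fold change of 3.06 (SE 0.79, adjusted p = 0.083). Its level in WT_HFD_LNAME 1 lay within the chow range. Of 13 mesothelial genes 1 was called, Gpm6a, given above, 12 had a positive fold change, and the median was 2.35, with 2.22 to 3.06 when 1 library was left out. The summed level of that list was 27.2, 101, 110 and 34.7 CPM in WT_HFD_LNAME and 15, 18, 15.5 and 25.3 CPM in WT_CD. Every treated library was above every chow library by this sum, but for WT_HFD_LNAME 1 and 4 this rested on Gpm6a. That gene gave 15.5 and 19.9 CPM of their sums, and 3.99 CPM of that of WT_CD 4. Summed without Gpm6a, WT_HFD_LNAME 1 and 4 lay within the chow range, and WT_HFD_LNAME 2 and 3 stayed above it. Msln, mesothelin, which is specific to the lining of body cavities, had 0.243, 15.9, 19 and 0.616 CPM in WT_HFD_LNAME and 0, 0, 0.281 and 0.14 CPM in WT_CD and was not called (6.16 (SE 1.72, adjusted p = 0.107)). It was high in WT_HFD_LNAME 2 and 3, whereas Gpm6a was high in all 4. Of 8 tested skeletal muscle genes 1 was called, the fast myosin Myh1, at 0.729, 0.659, 0.927 and 0.822 CPM in WT_HFD_LNAME and 0.119, 0, 0 and 0 CPM in WT_CD, which is 39 counts in WT_HFD_LNAME and 1 count in WT_CD (ratio 34.2, interval 5.79 to 1384, adjusted p = 0.0288). Of the other 7 tested members 5 had a positive fold change and none was called, and the list's median of 0.77 became -0.30 without WT_HFD_LNAME 3 and was 0.14 to 0.95 without each of the other wild-type libraries in turn.

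Antibody genes were higher, but 1 library carried most of their counts. Of 9 tested B and plasma cell genes 2 were called, and the median of 1.84 became 0.82 without WT_HFD_LNAME 3. Igkc, the kappa light chain constant region, had 18.5, 16.9, 118 and 36.2 CPM in WT_HFD_LNAME and 2.74, 0.70, 0.936 and 4.27 CPM in WT_CD, a log2 fold change of 4.41 (SE 0.89, adjusted p = 0.0411). Ighm, the heavy chain of immunoglobulin M, had 49.6, 43.1, 238 and 82.9 CPM in WT_HFD_LNAME and 14.7, 8.1, 11 and 19.2 CPM in WT_CD, a log2 fold change of 2.96 (SE 0.63, adjusted p = 0.0497). WT_HFD_LNAME 3 was the highest for both, and the lowest treated library was still above the highest chow library. Antibody genes are a multigene family, so reads may be split among near-identical copies.

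Other immune lists held no called gene. These were 17 macrophage genes with a median of -0.15, 11 T and natural killer cell genes with 0.22, 8 genes of MHC class II with 0.63, 23 interferon-stimulated genes with 0.30, 18 genes of adhesion and cytokines with 0.15 and 21 genes of complement and coagulation with 0.21. These medians moved when single libraries were left out. T and natural killer cell genes were at 0.03 without WT_CD 2 and 0.80 without WT_CD 4, and MHC class II at 0.35 without WT_HFD_LNAME 3 and 0.99 without WT_CD 4. Without WT_HFD_LNAME 3 interferon-stimulated genes were at 0.17, macrophage genes at -0.36 and complement at -0.04, and without WT_CD 3 interferon-stimulated genes were at 0.47. By smallest p, Vcam1, an adhesion molecule that binds leukocytes, had 44.8, 51.9, 43.3 and 44.4 CPM in WT_HFD_LNAME and 21.2, 34.5, 32 and 30.4 CPM in WT_CD, at 0.64 (SE 0.15, adjusted p = 0.0613). Its groups did not overlap, but it did not pass the threshold. C1qc was at -0.50 (SE 0.28, adjusted p = 0.434), Thy1 at -0.54 (SE 0.21, adjusted p = 0.246), Ciita at 1.0 (SE 0.53, adjusted p = 0.407) and Cmpk2 at 0.57 (SE 0.14, adjusted p = 0.0779). Outside the lists, Itgax and Cxcr4, which leukocytes express, were called higher, at 2.12 (SE 0.43, adjusted p = 0.0411) and 2.31 (SE 0.49, adjusted p = 0.0473).

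Fat cell genes showed 2 calls among 22 tested, with a median of 0.59. Lep, the adipose hormone leptin (Entrez 16846, chromosome 6, 29060221 to 29073876 in GRCm38.p6), had 45.5, 26.9, 91.6 and 41.2 CPM in WT_HFD_LNAME and 4.06, 1.7, 14.8 and 4.62 CPM in WT_CD, a log2 fold change of 3.02 (SE 0.57, adjusted p = 0.0371). Mest, an imprinted gene that enlarging fat cells express and that overlaps Copg2, had 5.1, 5.36, 4.55 and 10.6 CPM in WT_HFD_LNAME and 1.55, 1.3, 1.59 and 1.82 CPM in WT_CD, a log2 fold change of 2.02 (SE 0.34, adjusted p = 0.0269). Both were higher in every treated library than in any chow library. The summed level of the list, by contrast, was 9175, 20414, 29790 and 6393 CPM in WT_HFD_LNAME and 1927, 5908, 26727 and 11072 CPM in WT_CD, and the groups overlapped. Its median was -0.12 without both WT_CD 1 and WT_CD 2, 1.39 without WT_CD 3, and between 0.15 and 0.33 without WT_CD 1, WT_CD 2 or WT_HFD_LNAME 3. Lep was called while Cidec, a lipid droplet protein, was at 0.99 (SE 0.74, adjusted p = 0.58).

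Lists of energy metabolism held no called gene. Brown fat genes (14 tested) had a median of 0.67, fatty acid oxidation (23) 0.27, cholesterol metabolism (21) 0.04, insulin and glucose handling (21) 0.07, nuclear genes of the respiratory chain (19) 0.08 and the mitochondrial genome (13) 0.53. Fat synthesis (14) had the lowest median of these, -0.76, which turned to 0.10 without WT_CD 3 and was -1.42 without WT_HFD_LNAME 3. Scd1, which makes monounsaturated fatty acids, had 3885, 4035, 7384 and 2674 CPM in WT_HFD_LNAME and 1483, 7788, 30916 and 10260 CPM in WT_CD, at -1.49 (SE 0.70, adjusted p = 0.348). The chow libraries alone spread over more than 10-fold and enclosed all treated libraries. Ucp1, the uncoupling protein of brown fat, had 481, 1703, 1965 and 491 CPM in WT_HFD_LNAME and 18.6, 307, 1547 and 214 CPM in WT_CD, at 1.15 (SE 0.96, adjusted p = 0.627). The medians of the brown fat, fatty acid oxidation and respiratory chain lists turned to -0.02, -0.30 and -0.54 without both WT_CD 1 and WT_CD 2, and went the other way, to 1.54, 1.12 and 0.85, without WT_CD 3. Without WT_CD 3 the mitochondrial genome was at 1.02 and cholesterol metabolism at 0.31, and without WT_HFD_LNAME 3 insulin and glucose handling was at -0.11 and the mitochondrial genome at 0.28. By smallest p the lists gave glycerol kinase Gk at 1.44 (SE 0.45, adjusted p = 0.145), Mylip at 0.81 (SE 0.18, adjusted p = 0.0536), Igfbp3 at 1.79 (SE 0.44, adjusted p = 0.0723), Slc25a1 at -1.28 (SE 0.60, adjusted p = 0.346), Cpt1a at -0.32 (SE 0.17, adjusted p = 0.415), Cox6c at 0.24 (SE 0.43, adjusted p = 0.848) and the mitochondrial gene COX3 at 1.23 (SE 0.44, adjusted p = 0.208).

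Among lists of stress and cell state, the NADPH oxidase (8 tested), antioxidant (20), endoplasmic reticulum stress (18), cell cycle (22) and adventitial fibroblast (16) lists held no called gene and had medians of -0.15, -0.04, -0.13, 0.27 and -0.14. The antioxidant median turned to 0.19 without WT_CD 3 and the fibroblast median to 0.07 without WT_CD 4 (it was -0.32 without WT_CD 2), while the NADPH oxidase median was -0.07 without WT_HFD_LNAME 4 and the endoplasmic reticulum stress median -0.06 without WT_CD 3. Of the fibroblast genes 4 (Gli1, Mfap5, Fap and Col14a1) were lower without overlap, beside 2.54% of all tested genes, with log2 fold changes from -0.87 for Mfap5 to -0.53 for Fap, and were not called. Their genes of smallest p were Noxo1 at -0.83 (SE 0.24, adjusted p = 0.121), Gstm1 at -0.45 (SE 0.18, adjusted p = 0.25), Pdia4 at -0.30 (SE 0.12, adjusted p = 0.245), Top2a at 0.50 (SE 0.29, adjusted p = 0.444) and Mfap5 at -0.87 (SE 0.21, adjusted p = 0.0626). Hydrogen sulfide metabolism held no called gene of 13, with a median of -0.09 that turned to 0.30 without WT_CD 3. Mpst, which makes hydrogen sulfide and is the gene the series deals with, had 25.7, 31, 36.3 and 25.8 CPM in WT_HFD_LNAME and 36.4, 26.5, 44.1 and 37.2 CPM in WT_CD, at -0.28 (SE 0.16, adjusted p = 0.448), and the groups overlapped. Got1, a transaminase upstream of it, was at 1.44 (SE 0.43, adjusted p = 0.132).

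The 12 genes called lower formed no listed group and changed less. Itih4, a protease inhibitor family member (Entrez 16427, chromosome 14, 30886476 to 30901986 in GRCm38.p6), had 48.6, 67.4, 46 and 61.1 CPM in WT_HFD_LNAME and 353, 201, 123 and 169 CPM in WT_CD, a log2 fold change of -1.92 (SE 0.29, adjusted p = 0.0232), and was called in 7 of the 11 fits. It was the 1 called gene of 15 in the list of acute phase and plasma proteins, whose median of -0.51 turned to 0.08 without WT_CD 1 and to 0.09 without WT_CD 3. In the same list Alb, albumin, which the liver makes, had 2.59, 0.565, 4.13 and 1.44 CPM in WT_HFD_LNAME and 96.4, 0, 0.187 and 0.91 CPM in WT_CD, and was high in WT_CD 1 only. Slc25a37, the iron importer of mitochondria in red cell precursors, had 16, 15.1, 15.6 and 10.5 CPM in WT_HFD_LNAME and 22.2, 61.4, 30.3 and 42.9 CPM in WT_CD, a log2 fold change of -1.46 (SE 0.28, adjusted p = 0.0387). It was the 1 called gene of 8 erythroid genes, whose median was -1.93. Hbb-bs, a beta globin, had 1422, 1051, 723 and 795 CPM in WT_HFD_LNAME and 455, 6339, 4132 and 6308 CPM in WT_CD, and WT_CD 1 was below all treated libraries while the other chow libraries were above them. The 7 tested platelet genes had no call and a median of -0.43, which was 0.02 without WT_CD 1 and -0.66 without WT_CD 2, with Gp1bb at -0.48 (SE 0.29, adjusted p = 0.482).

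The remaining lower genes of known symbol were Or2t48, Lax1, Slc25a47, Nav2, Tmco6, Zfp113, Spsb2 and Xpc, beside 2 unnamed gene models. Nav2, a cytoskeletal navigator protein, had 22.7, 16.2, 24.3 and 17.4 CPM in WT_HFD_LNAME and 39.4, 33, 28.6 and 37.5 CPM in WT_CD, a log2 fold change of -0.78 (SE 0.16, adjusted p = 0.0411). Lax1, an adaptor of lymphocyte receptor signalling, had 3.32, 2.35, 2.7 and 1.78 CPM in WT_HFD_LNAME and 8.47, 6.0, 4.78 and 7.42 CPM in WT_CD, a log2 fold change of -1.39 (SE 0.29, adjusted p = 0.0439). Xpc, a DNA damage sensor, differed least, with 17.1, 18.2, 18 and 19.6 CPM in WT_HFD_LNAME and 24.8, 25.7, 25.5 and 22.9 CPM in WT_CD, a log2 fold change of -0.44 (SE 0.09, adjusted p = 0.0439). All were lower in every treated library. Slc25a47, a mitochondrial carrier, was at -0.92 (SE 0.20, adjusted p = 0.0487), Or2t48, an olfactory receptor at low counts, at -1.88 (SE 0.40, adjusted p = 0.0473), Tmco6, which overlaps Ndufa2, at -0.72 (SE 0.15, adjusted p = 0.0418), Zfp113 at -0.69 (SE 0.14, adjusted p = 0.0449) and Spsb2, which overlaps Tpi1, at -0.51 (SE 0.10, adjusted p = 0.0387).

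Immediate early genes had 1 call of 20, Klf2, given above, and a median of -0.38 that was 0.02 without WT_CD 1 and 0.27 without both WT_CD 1 and WT_CD 2. Fos had 40.5, 28, 26.1 and 36.7 CPM in WT_HFD_LNAME and 412, 80.3, 21.1 and 11.1 CPM in WT_CD, at -1.99 (SE 0.92, adjusted p = 0.341), and was highest in WT_CD 1. The 19 clock genes had no call and a median of -0.32, which was -0.10 without WT_CD 1, -0.49 without WT_CD 4 and -0.02 without both WT_CD 1 and WT_CD 2, with Bmal1 at 0.95 (SE 0.27, adjusted p = 0.111).

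**Figure D5:**
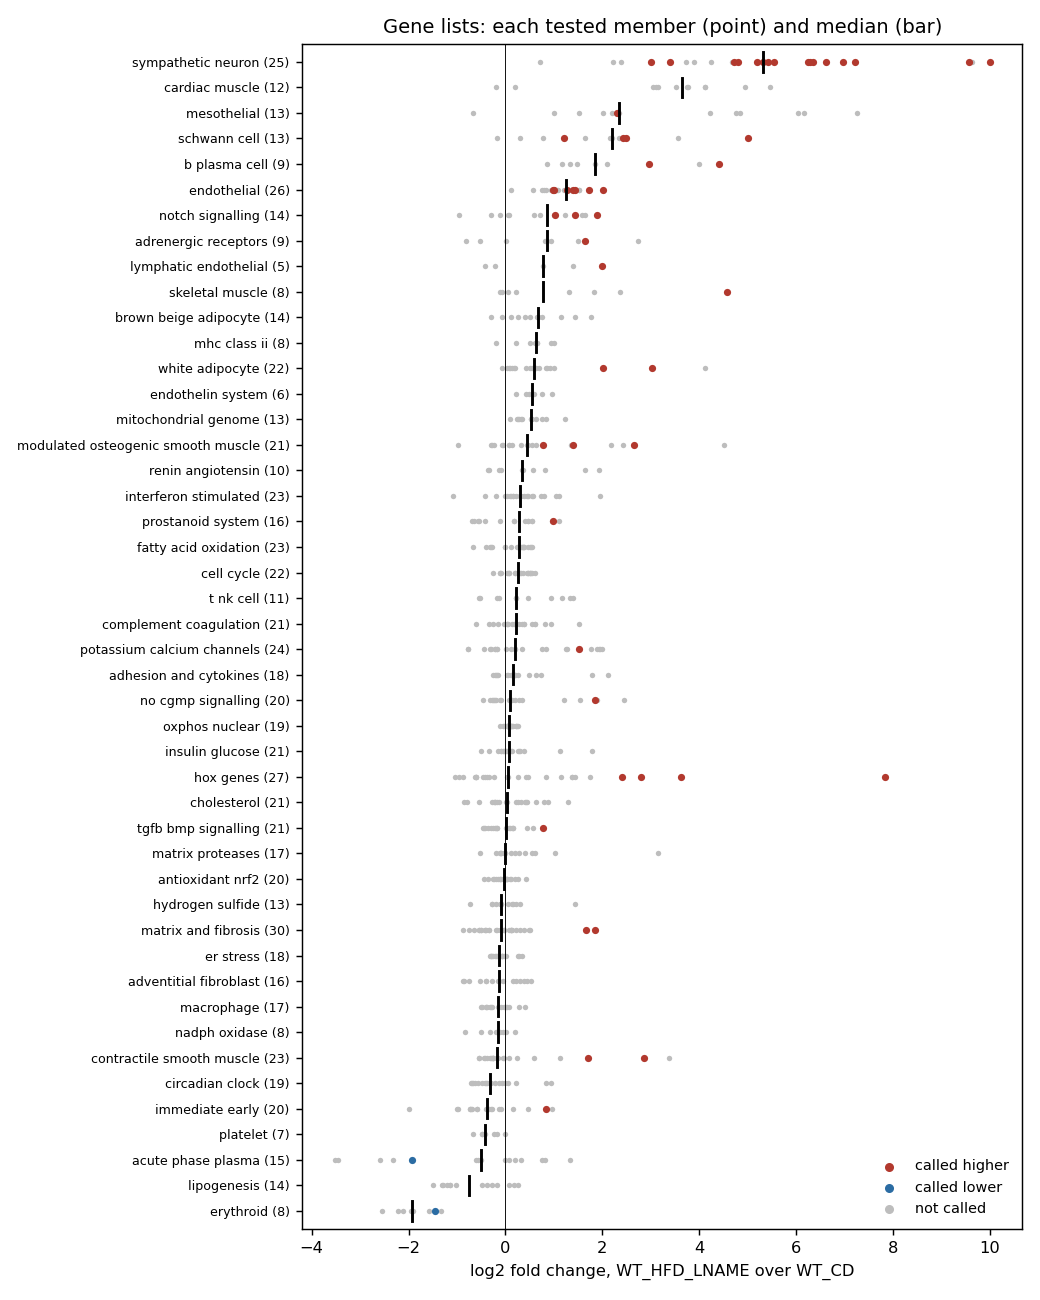
Log2 fold change of WT_HFD_LNAME over WT_CD (horizontal axis) of each tested member of 46 gene lists (1 row each, number tested in brackets), with red points called higher, blue called lower, grey not called and the black bar the list's median. The sympathetic neuron list has the highest median, 5.32, and the erythroid list the lowest, -1.93, and 25 lists hold no called gene.

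The authors' deposited table of the same comparison, made with DESeq2, gave an adjusted p for 16575 genes and called 569 higher (3.43%) and 67 lower (0.404%) at the same threshold. Of the 212 genes called here, 209 were also called in the authors' deposited table with the same sign. The log2 fold changes differed in size between the fits: the authors' deposited table gave 2.17 for Th, 2.51 for Stmn2, 1.72 for Lep, 1.84 for Ighm and 1.32 for Sox17, where edgeR gave 10.0, 3.40, 3.02, 2.96 and 1.40. DESeq2 as run here gave values near those of edgeR, with 10.2 for Th, 3.42 for Stmn2, 2.96 for Ighm and 1.40 for Sox17. The source of the difference from the authors' deposited table was not tested.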

How the data were processed

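Raw read counts per gene, as deposited by the authors, were used for 11 mouse aorta libraries. Per the submitters' processing notes, reads were handled with Trimmomatic (0.39), HISAT2 (2.2.1), featureCounts (2.0.3) and DESeq2 (2.11.40.7) on mm10. The annotation, the use of strand and the handling of reads that map to several places are not given in the sources used here, so overlapping genes may share reads. The authors' deposited comparison table holds log2 fold changes and adjusted p-values, which were taken as treated over chow because their signs match those of the counts.

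Counts were tested in R (4.3.3) with edgeR (4.0.16), using filterByExpr, TMM factors and the robust, two-sided quasi-likelihood test, with 1 mean per group over all 11 libraries and Benjamini-Hochberg adjustment over 14303 of 27179 genes. CPM use TMM-scaled library sizes, and figures show log2(CPM + 0.5). A gene was called at an adjusted p under 0.05. Alternatives used DESeq2 (1.42.0), limma (3.58.1), RLE factors, no filter, fewer libraries and a replicate block. The method was tested on simulated data. Intervals and floors cover counting error only.

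Named genes were the 15 with the largest called changes in each direction among those with a mean of 1 CPM or more and no overlap, the 10 of smallest p and the 10 of highest level among the calls, up to 3 called genes per list (or the 1 of smallest p), Mpst and Nos3. A few genes that this rule names are not reported here. Other genes were named after their values were seen. The genes and the 46 lists were chosen with earlier results of these data known.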

Additional observations from a re-analysis of the deposited data

Results flagged for a closer look

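In the groups of 4 libraries, 1 library lay far from the other 3 for 18 gene levels, among 280 groups of values examined, and chance flags about 1 in 20 groups. In 8 of the 18 the other 3 chow libraries were at 0, where any count in 1 library is set apart, so these 8 say nothing of the library that holds the counts.

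In WT_CD 1 Nos3 was at 7.16 CPM, below 25.8 to 28.7 CPM in the other chow libraries, and Sparcl1 was at 134 CPM, below 256 to 266 CPM. Hey1 was at 6.08 CPM, above 4.10 to 4.41 CPM. Th and Myh1 were each at 0.119 CPM, which is 1 count, against 0 in the other chow libraries.

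In WT_CD 4 Rit2, Tmem179 and Celf6 were each at 0.0700 CPM, Scg2 was at 0.210 CPM and Sult4a1 at 0.280 CPM, against 0 in the other chow libraries, and Npy was at 1.05 CPM, against at most 0.119 CPM. In WT_CD 3 Spock3 was at 0.0936 CPM against 0 in the others, and Spsb2 was at 19.5 CPM, below 23.5 to 24.2 CPM.

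WT_HFD_LNAME 4 stood apart in 4 genes. Reln was at 14 CPM, above 8.09 to 8.50 CPM in the other treated libraries, Ptgs1 at 34.3 CPM, above 25 to 26.4 CPM, and Mest at 10.6 CPM, above 4.55 to 5.36 CPM. Slc25a37 was at 10.5 CPM, below 15.1 to 16 CPM. In WT_HFD_LNAME 2 Vcam1 was at 51.9 CPM, above 43.3 to 44.8 CPM.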

How the results depend on the processing

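Beside 200 higher and 12 lower calls, the counts were 731 and 159 with DESeq2, 155 and 19 with limma voom, 134 and 4 with no low-count filter, 31 and 0 with the 8 wild-type libraries alone (923 higher and 582 lower at an unadjusted p under 0.05), and 59 and 0 without both WT_HFD_LNAME 3 and 4 (991 and 436). They were 0 and 0 in edgeR without both WT_CD 1 and WT_CD 2, where DESeq2 gave 326 and 68 and limma voom 0 and 0, these last 2 tools having been added after seeing the data. Leaving out 1 library at a time gave 2 to 398 higher and 0 to 123 lower calls, and the cause was not tested. RLE factors gave 198 and 11, and leaving out Rn45s and mitochondrial genes gave 190 and 12. The labels do not say that replicate numbers pair the samples. In their deviations from the group means, same-numbered libraries correlated at 0.33, -0.09, 0.54 and 0.03. WT_HFD_LNAME 1 and 3 correlated best with the chow library of their own number, and WT_HFD_LNAME 2 and 4 did not. Such correlations cannot decide whether samples were paired, because every other difference between libraries also enters them. With the replicate block 40 genes were higher and 2 lower. Of the 94 genes that the naming rule gives, only Cox6c turned from its direction, at -0.25 without both WT_CD 1 and WT_CD 2. Genes named outside that rule, such as Fos and Alb, were not checked for this. The depth, 3 counts at 0.205 to 0.358 CPM, limits folds for genes nearly absent in chow.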
